A study of Mus musculus with 8 samples.

Results

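Serpins are protease inhibitors that present a loop as bait, are cleaved by the protease and trap it in a covalent complex. Those of clade B lack a signal peptide for secretion and mostly stay inside the cell, where cytotoxic lymphocytes and the cells around them use some of them against granule proteases that leak into the cytosol. Mice carry expanded clusters of such genes, clade B on chromosome 13 and the clade A3 genes on chromosome 12. The 6 serpins described here were taken from the authors' table by gene name: Serpinb9, Serpinb6a, Serpinb6b and Serpinb1a of clade B, and Serpina3g and Serpina3f of clade A3. They are 6 of 19673 listed genes, and all 6 were among the 16120 genes with a mean normalized value of at least 10 that were tested. They were selected on their normalized values in the KO and WT libraries, with the difference between the host genotypes known, so their values in that comparison are given as a description.

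The RNA came from live CD45+CD3e+CD8+ cells sorted from Py8119 tumours, which grow from a mouse mammary tumour line. The hosts were Mtdh KO mice (4 libraries, KO) or wild-type mice (4 libraries, WT), called biological replicates by the submitters. Both groups carried the same tumour line. The labels give neither the strain, age or sex of the hosts nor the construction or tissue range of the deletion. Values are estimated reads per gene that the authors divided by a DESeq2 size factor, written here as normalized values. Mtdh itself lay at 2538 to 5118 in KO libraries, against 6407 to 12745 in WT libraries, with no overlap (log2 fold change -1.23, SE 0.25; adjusted p = 0.0400 by limma). That limma call ended without KO library 2, 3 or 4 or without WT library 1 or 2 (adjusted p up to 0.241), whereas an exact two-sided permutation test gave p = 0.0286, the smallest that 70 arrangements allow. The libraries held an estimated 16400000 to 29600000 reads, of which 28.5% to 36.3% fell on small RNA genes. The remaining reads were copied from an estimated 114000 to 636000 distinct cDNA fragments. A single fragment was worth a normalized value of 23.4 to 150.2, so a value near or below that rests on very few molecules.

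The cells were not pure by their transcripts. The 12 markers of CD8 T cells summed to 24687 to 51043 in KO libraries and 8911 to 31672 in WT libraries, and 11 of the 12 had a positive fold change although none passed the test. Of these only Cd8a did not overlap, at 7561 to 13355 in KO libraries and 1565 to 6545 in WT libraries. The 12 macrophage markers summed to 102379 to 231779 in KO libraries and 172667 to 280775 in WT libraries, all 12 with a negative fold change and none past the test. Only Mrc1 of that list did not overlap, at 6982 to 12364 in KO libraries and 15259 to 19912 in WT libraries. Among 11 tested dendritic cell markers 2 rose, the MHC class II genes H2-Aa and H2-Eb1, and the sums, mostly H2-Aa and H2-Ab1, were 56082 to 148916 in KO libraries and 21056.5 to 55485 in WT libraries. No other gene of that list passed, but 9 of the 11 had a positive fold change. The median of the 11 was 1.34 on the log2 scale. Ccr7 (1.28) did not overlap, at 667.8 to 2244 in KO libraries and 261.2 to 615.0 in WT libraries. Flt3, Itgax, Xcr1, Clec9a and Siglech were positive with overlap. Fscn1 was at -0.58 and Zbtb46 at -0.72. Zbtb46 was at 1.10 in KO library 2 and 329.9 to 474.3 in the other KO libraries, against 115.4 to 253.4 in WT libraries. Cd209a was under 3 reads in most libraries. Among 4 tested CD4 and regulatory T cell markers 2 also rose, Ikzf2 and Ctla4, with list sums of 5430 to 7869 in KO libraries and 2016 to 3497 in WT libraries. All 4 tested had a positive fold change. Tnfrsf4 lay at 109.3 to 191.6 in KO libraries and 0 to 26.0 in WT libraries, without overlap and without passing. Cd4 itself overlapped, at 11.01 to 121.6 in KO libraries and 0 to 169.3 in WT libraries. Foxp3 was listed at 0 in 6 of 8 libraries. None of 6 tested NK cell markers passed, and Ncr1 and Klra8 were under 3 reads in most libraries. Of the neutrophil markers S100a8, S100a9 and Cxcr2 were under 3 reads in most libraries, while the 2 tested, Mmp8 and Csf3r, had positive fold changes, did not pass and overlapped. Kit of the mast cell list lay at 399.4 to 972.1 in KO libraries and 40.7 to 79.6 in WT libraries, and Igkc of the B cell list at 297.2 to 585.8 in KO libraries and 56.5 to 114.4 in WT libraries, both without overlap and without passing. In such bulk samples fewer cells of a type and less RNA per cell cannot be told apart, and the part of cell composition in the serpin values was not tested.

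The sequence around the transcription start of 5 genes is shown because these promoter windows differ in 2 motifs bound by interferon-activated factors and because Serpinb9 can be set beside Serpinb9b, its relative and neighbour. The windows run from 250 bases before to 50 bases after the start and are RefSeq sequence on GRCm38.p6, not the mm39 build of the authors' table. Of the 6 serpins 5 had an entry, and Serpinb1a was not matched. Capitals mark the core of the interferon-stimulated response element (GAAA, then any 2 bases, then GAAA) and the gamma-activated sequence (TTCNNNGAA), each searched on both strands. The windows are Serpinb9 at chr13:33004291-33004590 on the plus strand, Serpinb9b at chr13:33027164-33027463 on the plus strand, Serpina3g at chr12:104235897-104236196 on the plus strand, the first of 2 overlapping windows of Serpina3f at chr12:104214294-104214593 on the plus strand, and the first of 2 windows of Serpinb6a at chr13:34002745-34003044 on the minus strand.
Serpinb9: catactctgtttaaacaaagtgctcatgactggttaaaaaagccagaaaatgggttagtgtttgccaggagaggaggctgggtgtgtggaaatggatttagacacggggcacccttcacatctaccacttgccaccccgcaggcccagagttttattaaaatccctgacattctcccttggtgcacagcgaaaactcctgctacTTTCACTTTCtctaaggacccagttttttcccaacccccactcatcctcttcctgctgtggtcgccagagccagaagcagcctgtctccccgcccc
Serpinb9b: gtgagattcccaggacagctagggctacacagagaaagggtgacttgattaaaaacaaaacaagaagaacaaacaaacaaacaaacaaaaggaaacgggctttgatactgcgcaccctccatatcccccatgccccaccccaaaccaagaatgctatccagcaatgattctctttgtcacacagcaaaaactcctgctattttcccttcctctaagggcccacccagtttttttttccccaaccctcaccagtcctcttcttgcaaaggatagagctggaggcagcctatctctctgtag
Serpina3g: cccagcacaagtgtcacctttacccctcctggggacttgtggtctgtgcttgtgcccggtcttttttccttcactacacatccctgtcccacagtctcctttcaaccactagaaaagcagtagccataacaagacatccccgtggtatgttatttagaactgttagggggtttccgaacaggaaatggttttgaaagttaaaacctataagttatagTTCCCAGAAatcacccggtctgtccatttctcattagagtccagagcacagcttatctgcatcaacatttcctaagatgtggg
Serpina3f: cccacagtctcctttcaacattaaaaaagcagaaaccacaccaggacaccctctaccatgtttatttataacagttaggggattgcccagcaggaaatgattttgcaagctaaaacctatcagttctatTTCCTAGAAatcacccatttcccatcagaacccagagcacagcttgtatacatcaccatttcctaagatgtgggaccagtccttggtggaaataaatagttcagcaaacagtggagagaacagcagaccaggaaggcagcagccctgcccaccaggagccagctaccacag
Serpinb6a: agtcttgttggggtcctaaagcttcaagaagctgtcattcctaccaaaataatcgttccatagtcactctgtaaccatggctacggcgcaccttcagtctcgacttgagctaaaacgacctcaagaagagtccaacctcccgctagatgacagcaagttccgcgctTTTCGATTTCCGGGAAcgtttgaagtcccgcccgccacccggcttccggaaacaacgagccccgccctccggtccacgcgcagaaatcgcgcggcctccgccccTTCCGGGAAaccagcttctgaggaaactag

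In the Serpinb9 window the response element core lay on the other strand at bases -46 to -37 from the start. The Serpinb9b window held neither motif. Serpina3g held the gamma-activated sequence at -33 to -25, and Serpina3f held it at -121 to -113. The Serpinb6a window held the response element core, also on the other strand, at -84 to -75, overlapping a gamma-activated sequence at -77 to -69. A further gamma-activated sequence lay at 21 to 29 after the start. The second Serpinb6a window and the Serpinb6b window held neither. Of 32851 promoter windows of this length, 3.44% held the response element core and 8.30% the gamma-activated sequence. A match describes letters and not binding.

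Serpinb9, the main intracellular inhibitor of granzyme B, protects cytotoxic cells and antigen-presenting cells from their own or stray granzyme. It lay at 3508, 4345, 2681 and 3383 in KO libraries 1 to 4, against 450.2, 511.9, 802.1 and 1044 in WT libraries 1 to 4. Every KO library stood above every WT library, and the groups did not overlap. KO libraries averaged 3479 ± 682, against 702 ± 275 for WT libraries (SD over 4 libraries per group), a ratio of 4.96 and a log2 fold change of 2.37 (SE 0.29). Every value was above the worth of 1 fragment. The gene (ENSMUSG00000045827) spans bases 33187233 to 33201940 of chromosome 13 on mm39, plus strand.

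Serpinb6b, which in mouse inhibits granzyme A, lay at 1044, 669.3, 840.3 and 842.3 in KO libraries, against 298.6, 18.9, 298.04 and 363.5 in WT libraries. All 4 KO values were above all 4 WT values. WT library 2 stood far below the other WT libraries, and its value was under the worth of 1 fragment in that library, 64.5. The log2 fold change was 2.39 (SE 0.71), and 1.39 (SE 0.39) without WT library 2. The gene (ENSMUSG00000042842) lies at 33149192 to 33163050 of chromosome 13, on the same strand as Serpinb9 and just before it.

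Serpinb6a, an intracellular inhibitor of cathepsin G and other trypsin-like or chymotrypsin-like proteases, lay at 1724, 1367, 739.02 and 1096 in KO libraries, against 1517, 1907, 1918 and 1451 in WT libraries. KO library 1 fell within the WT range and the other 3 KO libraries were below it. The log2 fold change was -0.52 (SE 0.29), opposite in sign to that of Serpinb6b, and ranged from -0.70 to -0.30 over the omission of single libraries. The ratio of the normalized value of Serpinb9 to that of Serpinb6a, not corrected for transcript length and so compared between libraries alone, was 2.04 to 3.63 in KO libraries and 0.268 to 0.72 in WT libraries. Per kilobase, Serpinb9 exceeded Serpinb6a in 3 of 4 KO libraries, the exception being KO library 1 with 1010 against 1042.

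Serpinb1a, an inhibitor of the neutrophil proteases elastase, proteinase 3 and cathepsin G, had the lowest mean per kilobase of the 4 clade B genes selected, overlapping Serpinb6b in WT. Its values were 410.2, 81.5, 59.7 and 129 in KO libraries, against 89.3, 363.3, 85.7 and 173 in WT libraries. The groups overlapped almost fully, with 1 high library in each. The log2 fold change of -0.22 (SE 0.91) ranged from -0.78 to 0.21 when single libraries were left out, so it has no fixed sign.

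Serpina3g, also called Spi2A, is a clade A3 serpin that acts in the cytosol on lysosomal cysteine cathepsins and is known from memory CD8 T cells in mouse. It lay at 458.2, 703.5, 1151 and 1814 in KO libraries, against 45.6, 311.3, 554.6 and 732.3 in WT libraries. The groups overlapped, since KO libraries 1 and 2 lay within the WT range. WT library 1 was under the worth of 1 fragment, 61.03. The log2 fold change was 1.71 (SE 0.66), and 0.85 without WT library 1.

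Serpina3f, the neighbour of Serpina3g on chromosome 12, lay at 299.8, 20.9, 189.6 and 411.4 in KO libraries, against 226.97, 1.89, 209.2 and 130.3 in WT libraries. Library 2 of each group was the low one, and both values were under the worth of 1 fragment. The log2 fold change of 1.21 (SE 1.39) turned to -0.29 without WT library 2. The pair is also the hardest to separate by sequence. Of all 50-base windows of the longest coding transcript, 16.0% in Serpina3g and 10.7% in Serpina3f occur exactly in another serpin transcript, against 0.38% in Serpinb9 and 1.81% to 3.42% in Serpinb6a, Serpinb6b and Serpinb1a. How reads matching several genes were counted is not given in the sources used here, so the split of reads between such genes is uncertain.

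**Figure D1:**
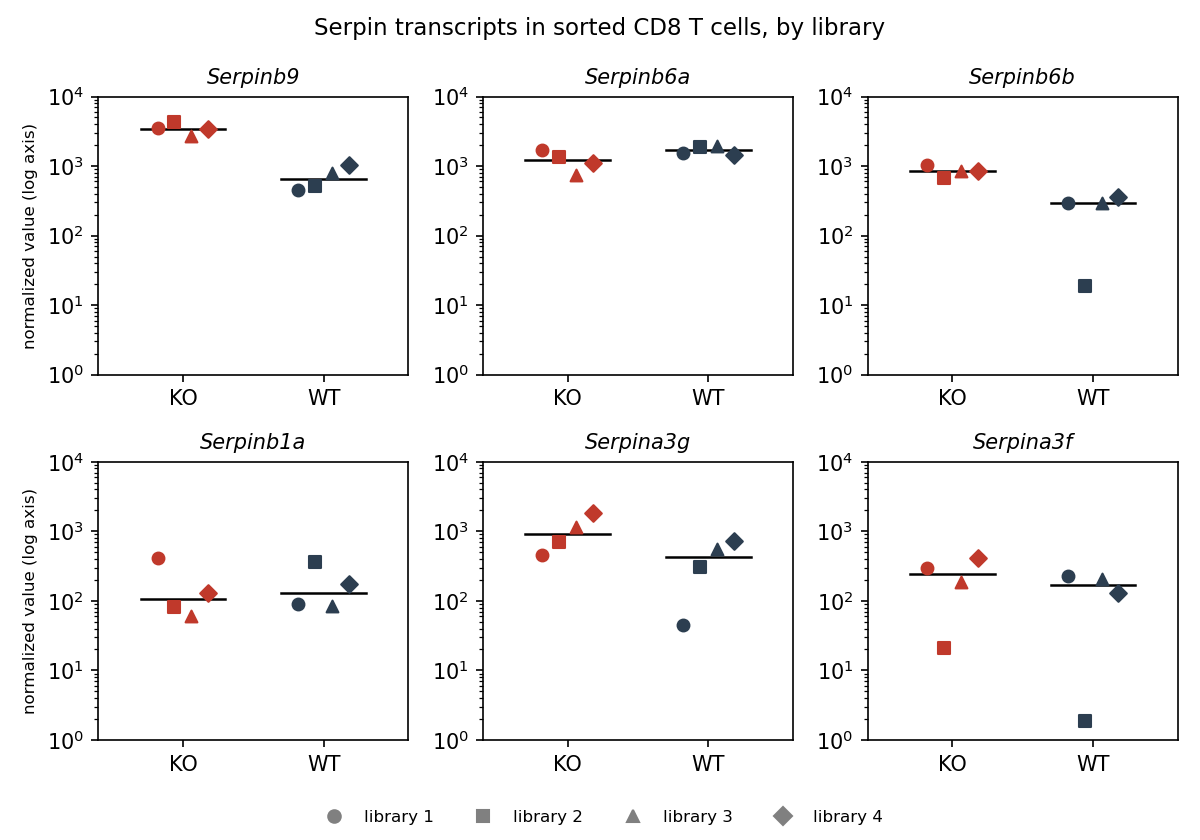
Normalized value of each of the 6 serpins in the 4 KO and 4 WT libraries, on a log axis, with a marker shape for each library number and a line at the group median. Serpinb9 and Serpinb6b do not overlap between the groups, and library 2 of each group is the low point of Serpina3f.

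Of the 6 serpins, 1 passed an adjusted p of 0.05 over all genes and was higher in KO, namely Serpinb9, against 0.211% of all genes tested. None passed in the other direction, against 0.0248% of all genes, and 0.236% of all genes passed in either direction. Serpinb9 also had the smallest p of all 16120 genes, and it was that difference which drew it into the selection, so nothing is read from the count. With the replicate number as a block Serpinb9 did not pass (limma adjusted p = 0.0513). Groups did not overlap, with KO higher, for 2 of 6 (Serpinb9 and Serpinb6b), against 2.02% of all genes. None was lower in KO without overlap, against 2.09% of all genes. The median log2 fold change of the 6 was 1.46, with 4 positive and 2 negative, beside -0.12 over all genes tested, and it ranged from 0.80 (without WT library 2) to 1.98 over the omission of single libraries.

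Levels were compared between genes per kilobase of the longest coding transcript. In KO libraries Serpinb9 averaged 1002 per kilobase, followed by Serpinb6a at 745, Serpina3g at 572, Serpinb6b at 387, Serpina3f at 103 and Serpinb1a at 88.7. Each of these neighbours overlapped over the KO libraries, except that Serpinb6b stood above Serpina3f in all 4. In WT libraries Serpinb6a came first at 1027 per kilobase, above Serpina3g at 228 in all 4 libraries. Serpinb9 at 202, Serpinb6b at 112, Serpinb1a at 92.7 and Serpina3f at 63.2 followed, each overlapping its neighbour. The most abundant serpin of the set was thus Serpinb9 in KO, where it overlapped Serpinb6a, and Serpinb6a in WT.

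Serpinb6b, Serpinb9 and Serpinb9b follow one another among the listed genes on the plus strand of chromosome 13, and these 3 genes were the ones without overlap between groups among 6 listed within 250 kb of the Serpinb9 start, beside 2.02% of all genes without overlap and higher in KO. Of the 3, Serpinb9 and Serpinb6b were selected on these values, so nothing is read from the count. Serpinb9b, a close relative of Serpinb9 (ENSMUSG00000021403, 33211399 to 33225867), lay at 621.8, 505.6, 141.6 and 131.04 in KO libraries and was listed at 0 in all 4 WT libraries. All 4 KO values exceeded the worth of 1 fragment in their library. No fold change is given against a group listed at 0. The limma test did not call Serpinb9b over all genes (adjusted p = 0.1045, from 0.0222 to 0.283 over the alternatives, and under 0.05 in 3 of 18). Only 0.406% of 50-base windows of its transcript occur in Serpinb9. The flanking genes overlapped between groups: Wrnip1, a DNA repair factor, with 276.6 to 461.7 in KO libraries against 194.1 to 613.1 in WT libraries, and Serpinb1b at 0 in 2 KO libraries and in all WT libraries.

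**Figure D2:**
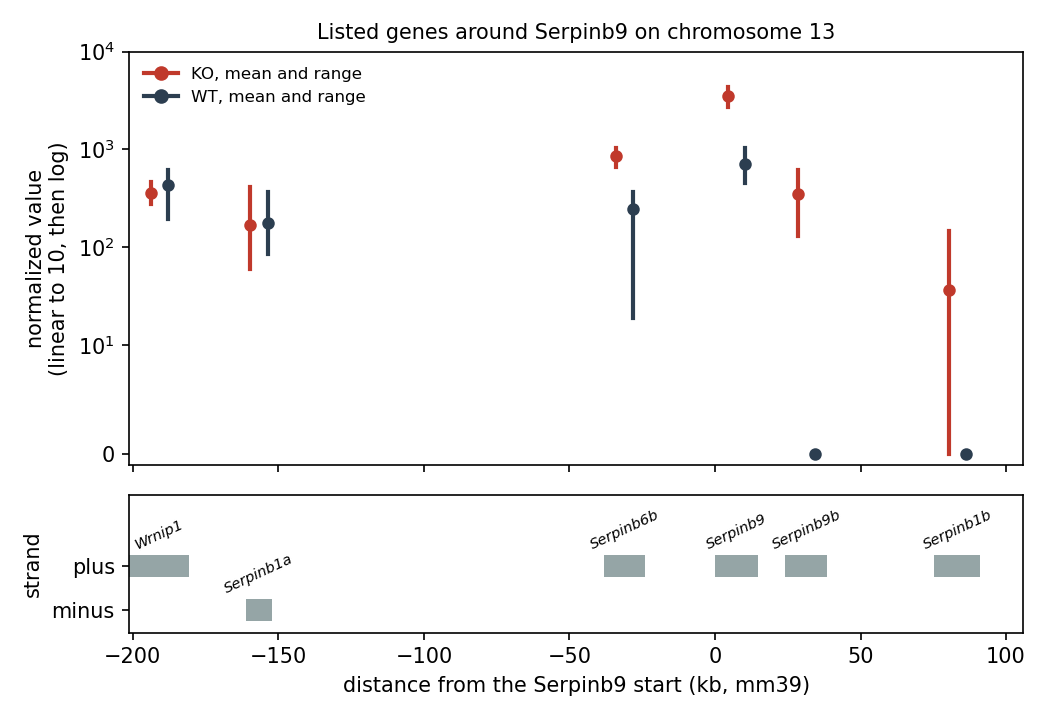
The 6 genes of the authors' table within 250 kb of the Serpinb9 start on chromosome 13: group mean (point) and range over 4 libraries (bar) of the normalized value, KO left of WT at each gene, above the position and strand of each gene. Serpinb6b, Serpinb9 and Serpinb9b show no overlap between KO and WT, and Serpinb9b is at 0 in all WT libraries.

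The granule genes on which Serpinb9 acts, or which act with its target, were read beside it. Among the 10 tested granzymes and granule partners, 1 rose and none fell, with a median log2 fold change of 1.41 beside -0.12 over all genes. That median was 0.48 without KO library 1 and 0.41 with a minimum mean of 50 or with no filter. The gene that rose was Prf1, which encodes perforin, the pore that admits granzymes. It lay at 1077 to 1857 in KO libraries, against 80.0 to 336.7 in WT libraries (log2 fold change 3.11, SE 0.47, limma adjusted p = 0.00466). Its call ended without KO library 4 (limma adjusted p = 0.0575) and with a replicate block (0.0513). Gzmb, granzyme B itself, lay at 1268, 1222, 2516 and 1276 in KO libraries, against 420.4, 49.2, 525 and 562.9 in WT libraries. The groups did not overlap, but Gzmb did not pass over all genes (log2 fold change 2.41, SE 0.58, limma adjusted p = 0.116, and 0.0307 to 0.541 over the alternatives), and its log2 fold change was 1.58 without WT library 2. Ctsc, the cathepsin that activates granzymes, had the highest normalized values of that list, with 11953 to 28582 in KO libraries and 17722 to 22930 in WT libraries.

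Ratios of normalized values within a library do not depend on its size factor. They are not corrected for transcript length, so they serve to compare libraries and not the amount of one transcript with another. The ratio of Serpinb9 to Gzmb was 2.77, 3.56, 1.07 and 2.65 in KO libraries, against 1.07, 10.4, 1.53 and 1.85 in WT libraries. The ratios overlapped, but the value in WT library 2 rests on a Gzmb level below the worth of 1 fragment. KO libraries 1, 2 and 4 lay above WT libraries 1, 3 and 4, while KO library 3 was level with WT library 1. The ratio of Serpinb9 to Prf1 was 3.26, 2.80, 1.94 and 1.82 in KO libraries, against 5.63, 4.79, 3.06 and 3.10 in WT libraries. All but 1 KO library lay below the WT range. Set against the summed CD8 T cell markers, Serpinb9 came to 142, 115, 52.5 and 81.7 per 1000 in KO libraries, against 18.8, 57.4, 30.6 and 33.0 per 1000 in WT libraries. Only KO library 3, with 52.5, and WT library 2, with 57.4, crossed. By the same measure Serpinb6b had 16.5 to 42.3 per 1000 in KO libraries, against 2.12 to 12.5 per 1000 in WT libraries, with no overlap. The groups overlapped for Serpina3g, with 18.6 to 43.8 per 1000 in KO libraries against 1.90 to 34.9 per 1000 in WT libraries.

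**Figure D3:**
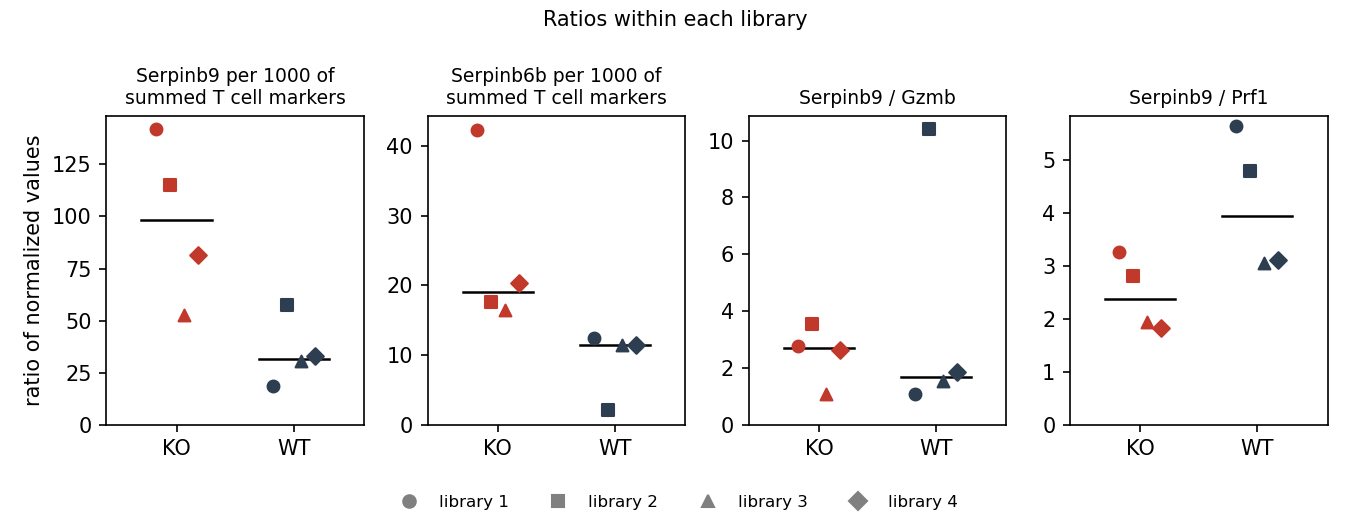
Ratios of normalized values within each library for the 4 KO and 4 WT libraries, with a line at the group median: Serpinb9 and Serpinb6b per 1000 of the summed 12 CD8 T cell markers, Serpinb9 over Gzmb and Serpinb9 over Prf1. The marker ratio of Serpinb6b separates the groups, and that of Serpinb9 does so but for KO library 3 and WT library 2. Serpinb9 over Gzmb overlaps, its highest value being WT library 2, where Gzmb was below the worth of 1 fragment.

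No call was made among the further proteases and inhibitors. Of 9 caspases none passed and 3 had a positive fold change, with a median log2 fold change of -0.23. Casp12, an inflammatory caspase, lay at 4.40 to 840.3 in KO libraries and 272.6 to 743.7 in WT libraries, with overlap. Of 9 cysteine proteases of the lysosome (cathepsins and legumain), the class that Serpina3g acts on, none passed and 7 had a negative fold change, with a median of -0.23. Ctsb, cathepsin B, lay at 9253 to 16950 in KO libraries and 13993 to 19768 in WT libraries (-0.46, SE 0.21, limma adjusted p = 0.739). Lgmn, a lysosomal endopeptidase, lay at 8550 to 17898 in KO libraries and 14003 to 27440 in WT libraries. The 14 listed serine proteases of granulocytes and mast cells include some that Serpinb1a and Serpinb6a inhibit. Of the 14, 1 was tested, Prtn3 (proteinase 3), which was at 204 in KO library 2 and under 1 elsewhere.

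Of 15 tested protease inhibitors that are not serpins none passed, 8 were positive and the median log2 fold change was 0.05. Cst7, the leukocyte cystatin that restrains granzyme-activating cathepsins, lay at 1035 to 1564 in KO libraries and 388 to 1194 in WT libraries (1.06, SE 0.35, limma adjusted p = 0.466). Birc3, an inhibitor of apoptosis and NF-kappaB target, lay at 3304 to 5851 in KO libraries and 2113 to 3226 in WT libraries without overlap (0.80, SE 0.23, limma adjusted p = 0.310). Xiap, a direct caspase inhibitor, lay at 5337 to 9682 in KO libraries and 6674 to 8739 in WT libraries.

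The remaining serpins held no call. Of 5 tested clade B serpins, which include Serpinb9b, 3 were positive and 2 negative. Serpinb8, another intracellular serpin, lay at 165 to 572 in KO libraries and 226 to 372 in WT libraries (log2 fold change -0.35, SE 0.57). Serpinb2 and Serpinb5 were above 0 in only KO library 1 and WT library 2. Serpina3n, a secreted clade A3 serpin, lay at 0 to 138 in KO libraries and 0 to 107 in WT libraries. Of 8 tested serpins of other clades, 3 were positive and 5 negative. Among them Serpinc1, Serpind1, Serpinf1 and Serpinh1 were at or near 0 in at least 1 library.

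**Figure D4:**
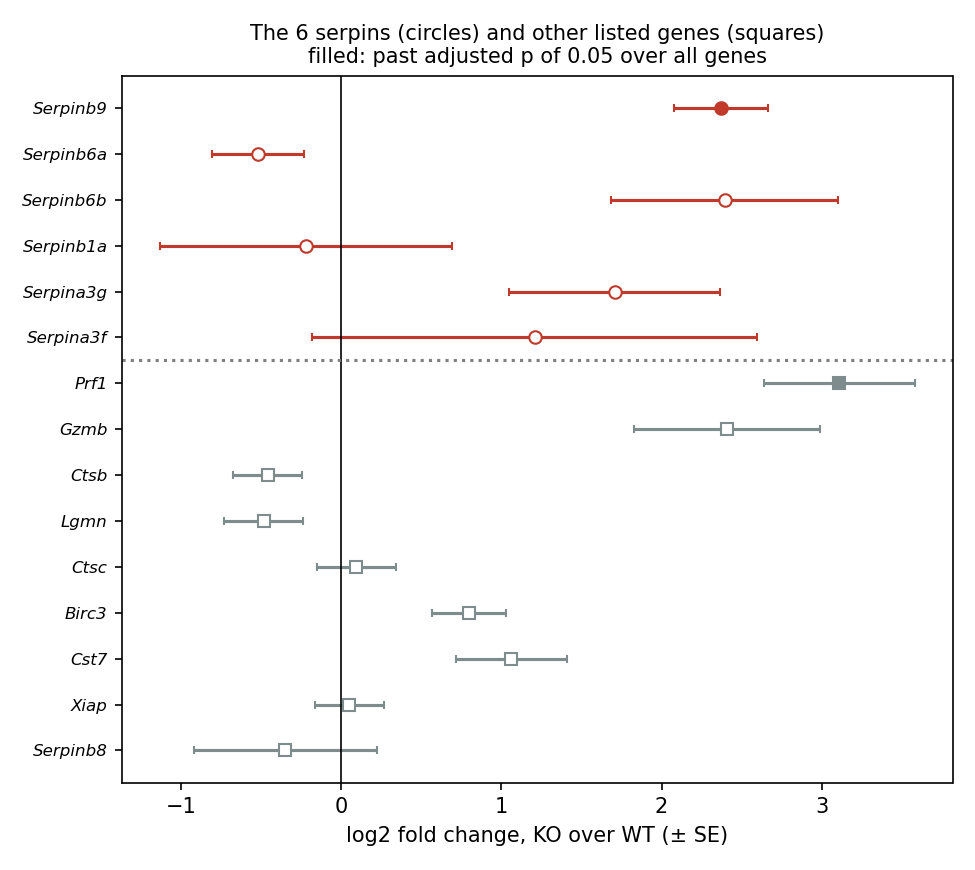
Log2 fold change, KO over WT, with its SE for the 6 serpins (circles) and for other listed genes (squares), filled where the adjusted p over all genes was under 0.05. Serpinb9 at 2.37 and Prf1 at 3.11 are the filled points. The SE bars of Serpinb1a and Serpina3f cross 0 among the circles, and those of Ctsc, Xiap and Serpinb8 among the squares.

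The genes whose levels followed Serpinb9 most closely from library to library, once each group's mean was removed, were Wrn (Pearson r = 0.980 over 8 libraries), Arpc2 (0.979), Ptar1 (0.963), Tnfsf11 (0.962) and Ccdc80 (0.950), of 9257 genes compared. Wrn is a DNA helicase, Arpc2 a subunit of the actin-nucleating Arp2/3 complex, Ptar1 a prenyltransferase subunit and Tnfsf11 the cytokine RANKL. Prf1 ranked 56th by this measure with 0.857. Serpina3g had 0.602, Serpinb6b 0.401, Gzmb 0.344, Serpinb6a 0.244, Serpina3f 0.107 and Serpinb1a 0.0246. In WT libraries 1 and 2, Tnfsf11 (1.86 and 1.89) and Ccdc80 (2.79 and 6.62) were under the worth of 1 fragment. Ccdc80 was also under it in KO library 3. The r values of Tnfsf11 and Ccdc80 thus rest in part on very few molecules. How high the largest r among 9257 genes would be by chance was not tested. The points of each r share the same 8 libraries, which differ in their number of fragments, and r is given as a description.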

How the data were processed

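Gene-level values of 8 libraries (4 KO, 4 WT) were used. The deposited signal is, as the authors' table is named, estimated reads divided by a DESeq2 size factor. Partek, STAR 2.7.8a, DESeq2 and mm39 are named per the submitters' processing notes, without roles; strand use in counting is not given in the sources used here. Low values were mostly multiples of 1 read, but only 81.7% to 88.1% of the values examined came within 0.02 reads of a whole number, so no count model was run. Depth was the column sum over the worth of 1 read. Fragments were estimated for genes other than small RNA genes. They came from the share of such genes (mean 20 to 500 in the other libraries) with under 3 reads, read as a Poisson zero share. Positions are mm39 from the table.

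Log2(value + 1) of genes with a mean of at least 10 was fitted with limma 3.58.1 in R 4.3.3 (trend, two-sided, Benjamini-Hochberg over all genes, threshold 0.05). On simulated data the model recovered 39% of genes changed by 1 log2 unit, 86% by 2 and 96% by 3. Of 139 calls there, 9 were false. The changed genes were drawn from the more abundant ones. A gene that did not pass may therefore still differ. Per-length values and shared 50-base windows used GENCODE M21 transcripts. The members and lists were chosen with earlier results of these data known. Named were Mtdh, the 6 members, every tested serpin of the other lists, from each further list the genes past the threshold, the 2 with smallest p and the most abundant, and the 5 genes most like Serpinb9 with a mean of at least 100. Some genes that this rule names are not reported here. Genes beyond these were named for their position or as markers after their values were seen. Alternatives covered pseudocount, filter, scaling, replicate block, weights, robust fitting and omission of libraries.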

Additional observations from a re-analysis of the deposited data

Results flagged for a closer look

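Of 46 groups of 4 libraries checked on the log2 scale, 6 held a library that stood apart from its group, its gap to the nearest other library taking up nearly the whole range, where chance gives about 1 in 20. Among the serpins, WT library 2 was far below the other WT libraries for Serpinb6b (18.9) and for Serpina3f (1.89). The same library was low for Gzmb (49.2), and KO library 3 was the high one of its group for Gzmb (2516). KO library 3 was the low one for Ctsc (11953) and for Serpinh1 (0). WT library 2 also had the lowest sum of CD8 T cell markers, 8911, and the part of this in its Serpinb6b, Serpina3f and Gzmb values was not tested.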

How the results depend on the processing

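Of 18 alternatives, 17 left 1 of the 6 serpins past the threshold, and Serpinb9 kept a log2 fold change of 2.13 to 2.59. With group means removed, same-numbered libraries correlated by 0.0092 to 0.122, and differently numbered ones by -0.114 to 0.113. These values cannot settle whether the samples were handled in pairs, which the labels do not state. With a replicate block 0 serpins, 0 other listed genes and 0 genes in all, higher or lower, passed, where Mtdh had -1.23 (limma adjusted p = 0.0627). Genes higher in KO, 34 in all, numbered 59 with a pseudocount of 10, 15 with a minimum mean of 50, 94 with sample weights and 21 without the least complex library of each group (chosen after seeing the data), and 7 to 61 over the omission of single libraries. Genes lower in KO, 4 in all, numbered 0 with a minimum mean of 50, 7 with quantile scaling, 18 with sample weights, 0 without the least complex libraries and 0 to 9 over single omissions. Other listed genes higher in KO, 1 in all, numbered 3 with a pseudocount of 10, 2 with quantile scaling, 3 with sample weights and 0 to 2 over single omissions. Mtdh did not pass with a minimum mean of 50 (-1.23) or without the least complex libraries (-1.15), and ranged from -1.38 to -1.04 over single omissions. Signs changed for some genes that did not pass. Xiap (0.05) was at -0.041 with quantile scaling and -0.045 to 0.24 over single omissions, Ctsc (0.09) at -0.033 to 0.39, Serpinh1 (-1.36) at -2.05 to 0.38, Serpina3f (1.21) at -0.29 to 2.14 and Serpinb1a (-0.22) at -0.78 to 0.21. The cause of these changes was not tested. Values near 1 fragment limit Serpinb1a, Serpina3f and the low WT values of Serpinb6b and Serpina3g.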
